A study of Rattus norvegicus with 9 samples.

Results

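Among the genes that were higher in rat cardiomyocytes after hypoxia and reoxygenation (H/R), 89 were level or higher still, within 5%, when the compound AS8351 was present during reoxygenation. They were taken from the 15879 genes with enough counts to be tested, of 30560 gene IDs measured. Levels are CPM, counts scaled to a common library size by TMM. A gene was included when its mean over all 9 libraries was at least 1 CPM, its H/R-DMSO mean at least 2 times the normoxia mean, and its H/R-AS8351 mean at least 0.95 times the H/R-DMSO mean. The members were thus chosen by the measured values of all 3 groups, and the differences between these groups are given for them as a description. Calls and intervals from fitted models, where printed for members, take no account of this choice and are no test of them.

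The cells were rat heart cells labelled as cardiomyocytes (NRCM), the contracting cells of the heart, with 3 libraries per group. The normoxia group stayed in normal oxygen. The H/R-DMSO group spent 6 h at 0.1% oxygen without glucose or pyruvate and was then returned for 12 h to 21% oxygen and the usual medium, with DMSO, the solvent of the compound. The H/R-AS8351 group had the same course with 0.5 µM AS8351, dissolved in DMSO, during the 12 h of reoxygenation. No genetic change is named for any group, although the labels enter the oxygen condition under genotype. Whether the normoxia cells received DMSO is not stated, and neither is whether libraries of 1 group are separate cultures. The spread between libraries may therefore be technical.

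H/R mimics in a dish the cut and return of blood flow in an infarcted heart. Low oxygen stabilises hypoxia-inducible factors, which switch on genes for glycolysis, iron and oxygen handling and vessel growth. The return of oxygen brings oxidative stress, protein folding stress and inflammatory signalling, each with its own induced genes. The labels name AS8351 as an inhibitor of Kdm5b, an enzyme that removes methyl groups from a lysine of histone H3 that marks active promoters.

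Genes are identified by Ensembl ID without names. The rat gene table used here holds no Ensembl IDs, so 0 of the 89 members could be matched to it. The members' functions, their promoters and their place in the genome are therefore not analysed here, and no sequence is shown. The same holds for the cell type markers, so the label of the cells was not checked. Members are called by their rank from 1 to 89, in order of the ratio of the H/R-DMSO mean to the normoxia mean. Only 2 are given by ID: the member with the highest such ratio and the one with the highest ratio of H/R-AS8351 to H/R-DMSO, each among members that averaged 5 CPM or more.

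The libraries held from 34442733 to 54888975 counts, so that 1 count was worth between 0.0194 and 0.0283 CPM. In a chi-square test of their counts, 2 libraries of the same group always differed beyond sampling noise (at least 3.89 per degree of freedom), and none was treated as a repeat of another. In these bulk samples, fewer cells of a type and less RNA per cell cannot be told apart.

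Of the 13435 genes that averaged 1 CPM or more, 427 had an H/R-DMSO mean at least 2 times that of normoxia. The members were 89 of them, or 20.8%. In the other 338 the H/R-AS8351 mean was below 0.95 times the H/R-DMSO mean. Over all 427 induced genes the ratio of H/R-AS8351 to H/R-DMSO had a median of 0.808 and quartiles of 0.700 and 0.914. The members are thus the upper end of a continuous range in which most ratios lie below 1, and no gap separates them from the rest.

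**Figure D1:**
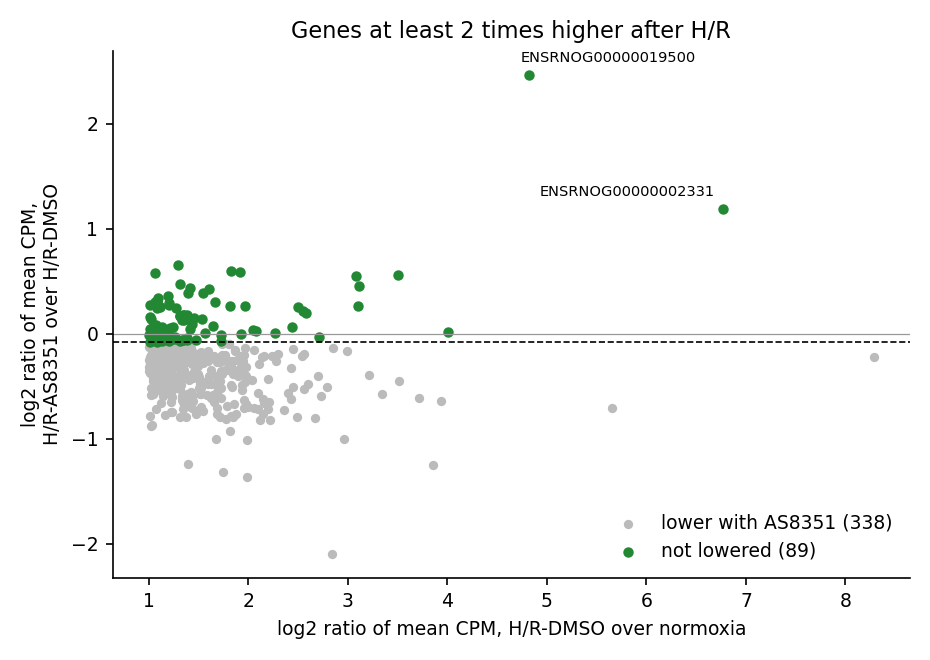
Each point is 1 of the 427 genes with an H/R-DMSO mean at least 2 times the normoxia mean and a mean of at least 1 CPM; the x axis is the log2 ratio of mean CPM of H/R-DMSO to normoxia and the y axis that of H/R-AS8351 to H/R-DMSO. The dashed line is the ratio of 0.95 that separates the 89 members (green) from the other 338 genes (grey), and the 2 members given by ID lie far above the rest.

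The genes nearest to that line show how little separates the sides. The member with the smallest ratio went from 7.24 CPM in H/R-DMSO to 6.88 CPM in H/R-AS8351, a ratio of 0.9502. The nearest gene outside went from 62.6 to 59.4 CPM, a ratio of 0.9481. Between 0.95 and 1 lay 27 members, and between 0.90 and 0.95 a further 30 induced genes that are not members. At the limit of induction, the last member had 30.3 CPM in normoxia and 60.6 CPM in H/R-DMSO, a ratio of 2.002, and the nearest gene outside had a ratio of 1.996. At the limit of level, the last member had a mean of 1.005 CPM and the nearest gene outside 0.990 CPM.

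Most members were of low abundance. Their median level over the 9 libraries was 4.28 CPM, with quartiles of 2.00 and 9.63 CPM, and 53 of the 89 had a mean under 5 CPM. The median of the other 338 induced genes was 6.51 CPM, and that of all genes tested 18.9 CPM. Members made up 26.2% of the 84 induced genes with 1 to 2 CPM and 27.7% of the 112 with 2 to 5 CPM. They made up 18.7% of the 134 genes with 5 to 20 CPM and 11.3% of the 97 with at least 20 CPM. The share of members was thus lower among the more abundant induced genes, a description that has no test because the same values chose the members.

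Induction was mostly modest. The ratio of H/R-DMSO to normoxia had a median of 2.48 over the members, with quartiles of 2.15 and 3.17, against a median of 2.61 over the other induced genes. Between 2 and 3 times lay 64 members, and 15 were at least 4 times higher in H/R-DMSO. By size of induction, members were 22.9% of the 280 genes induced 2 to 3 times, 11.6% of 86 induced 3 to 4 times, 17.4% of 46 induced 4 to 8 times and 7 of the 15 induced at least 8 times. The strongest inductions thus held a larger share of members than the middle of the range, though that last class has few genes. Within it, ranks 3 to 7 averaged only 1.20 to 4.01 CPM over the 9 libraries, levels at which members were a larger share anyway. This too is a description without a test.

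All 3 H/R-DMSO libraries lay above all 3 normoxia libraries for 88 of the 89 members, where 30% of all genes tested did so. The exception was the member of rank 69. It had 0.798, 0.680 and 0.509 CPM in normoxia and 2.11, 0.778 and 1.36 CPM in H/R-DMSO. The second H/R-DMSO library thus fell within the normoxia range, while the H/R-AS8351 libraries at 1.90, 1.82 and 1.67 CPM did not. By edgeR all 89 members were called higher in H/R-DMSO than in normoxia at an adjusted p of 0.05, as were 27.5% of all genes tested. Since the rule used this contrast, nothing is read from either count.

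The other induced genes reached up to 311 times their normoxia mean. Among the members, the highest induction was that of ENSRNOG00000002331, at rank 1. In normoxia it was nearly silent, with 2, 4 and 0 counts in the 3 libraries, or 0.0484, 0.0778 and 0 CPM. In H/R-DMSO it stood at 4.25, 4.45 and 5.04 CPM, and in H/R-AS8351 at 11.5, 10.1 and 9.88 CPM. The 3 groups did not overlap, and each step was upward. The H/R-DMSO mean of 4.58 ± 0.412 CPM (SD, n = 3) was 109 times the normoxia mean, with a 95% counting interval from 45.0 to 270 times (exact binomial, counting error only). The size of this ratio rests on 6 normoxia counts: it was 189 without normoxia replicate 2 and 72.6 without normoxia replicate 3. The H/R-AS8351 mean of 10.5 ± 0.866 CPM was 2.29 times the H/R-DMSO mean.

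ENSRNOG00000019500, at rank 2, had the highest ratio of H/R-AS8351 to H/R-DMSO. It had 0.193, 0.117 and 0.113 CPM in normoxia, on 18 counts in all. In H/R-DMSO it had 4.06, 3.67 and 4.19 CPM, and in H/R-AS8351 23.8, 24.5 and 17.7 CPM. Here too the groups did not overlap, and the third H/R-AS8351 library was the lowest of its group. The H/R-DMSO mean of 3.98 ± 0.273 CPM (SD, n = 3) was 28.2 times the normoxia mean, with a 95% counting interval from 17.8 to 48.4 times. The H/R-AS8351 mean of 22.0 ± 3.75 CPM was 5.53 times the H/R-DMSO mean. Without the third H/R-AS8351 library the ratio was 6.08. These 2 genes were the only members whose H/R-AS8351 mean was at least 2 times the H/R-DMSO mean.

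The next ranks were less uniform. The member of rank 3 had 0.0484, 0.0778 and 0.198 CPM in normoxia, 1.68, 1.42 and 2.12 CPM in H/R-DMSO and 2.13, 1.82 and 1.33 CPM in H/R-AS8351. Its induction of 16.1 times was large, and the libraries with and without AS8351 overlapped at a ratio of 1.01. Rank 4 had 1.58, 1.72 and 2.12 CPM in H/R-DMSO and 2.90, 2.09 and 2.99 CPM in H/R-AS8351, and the ranges overlapped slightly although the ratio was 1.47. Among the 12 members of highest induction, 11 had a higher mean in H/R-AS8351 than in H/R-DMSO and 5 were higher by at least 25%. Rank 8 was the exception, with 2.67, 2.17 and 2.54 CPM in H/R-DMSO and 3.00, 2.28 and 1.94 CPM in H/R-AS8351.

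At rank 11 and rank 12 stood more abundant genes. Rank 11 had 5.10, 3.85 and 4.01 CPM in normoxia, 24.3, 25.5 and 23.5 CPM in H/R-DMSO and 27.6, 28.9 and 31.2 CPM in H/R-AS8351. The treated libraries were all above the H/R-DMSO libraries, at a ratio of 1.20. Rank 12 had 7.35, 7.89 and 7.09 CPM in normoxia, 40.6, 40.8 and 40.0 CPM in H/R-DMSO and 41.0, 44.7 and 41.2 CPM in H/R-AS8351. It was close to level between both H/R groups, at a ratio of 1.045.

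**Figure D2:**
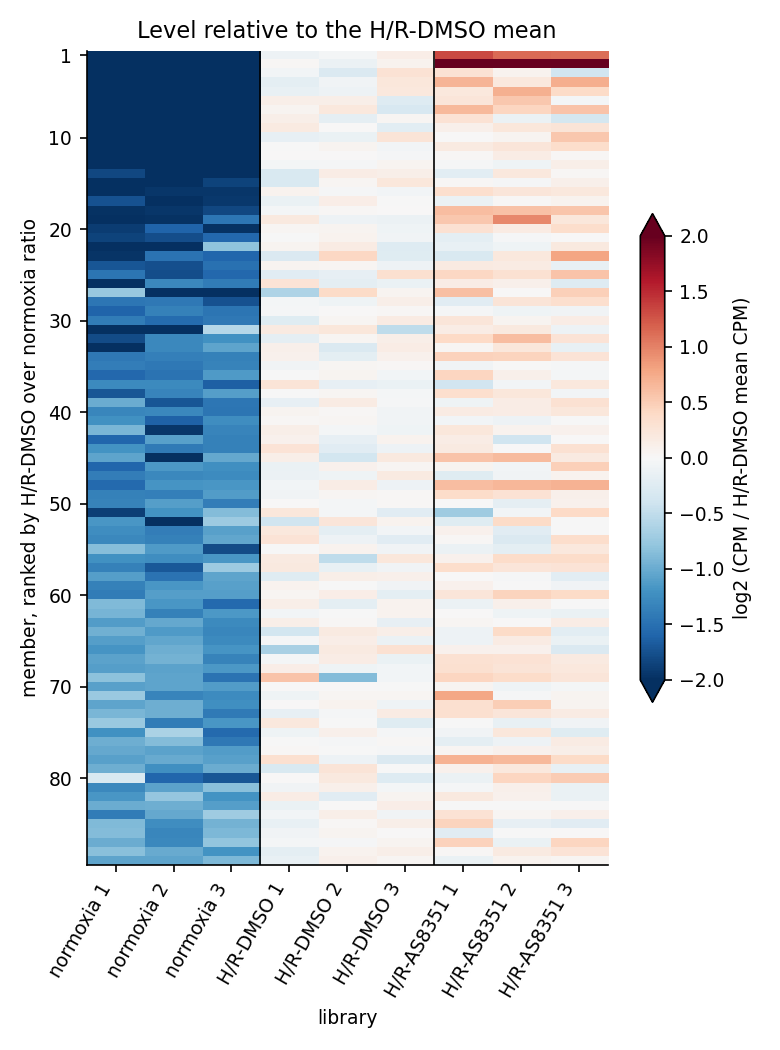
Each row is 1 of the 89 members, in order of the ratio of H/R-DMSO to normoxia from rank 1 at the top, and each column 1 of the 9 libraries; colour gives the log2 of the CPM over the member's H/R-DMSO mean, with values beyond 2 in either direction in the end colours and values under 0.01 CPM set to 0.01. The normoxia columns are blue in all rows, palest for normoxia 1 at rank 80, and the H/R-AS8351 columns are mostly near white or red, with the darkest red at rank 2.

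Treated and solvent cells after H/R were set side by side to ask how the compound left these induced genes. The ratio had a median of 1.07 over the members, with quartiles of 0.992 and 1.21. It lay from 0.95 to 5% above 1 for 42 members and was higher for 47. The H/R-AS8351 mean was at least 25% higher for 16 members and at least 50% higher for 5. Over all genes tested the median log2 ratio by edgeR was -0.01. All 3 H/R-AS8351 libraries lay above all 3 H/R-DMSO libraries for 21 members (23.6%), against 18.2% of all genes tested. The rule kept lowered genes out of the members but not out of that background, so nothing is read from the difference. The opposite order occurred for 0 members, against 16.8% of all genes tested, and the limit of 0.95 in the rule leaves little room for it. For the other 68 members the 2 groups overlapped.

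By edgeR 14 members (15.7%) were called higher in H/R-AS8351 than in H/R-DMSO at an adjusted p of 0.05, against 13.1% of all genes tested, and 0 were called lower, against 9.97%. With DESeq2 14 members were called higher. The same contrast was part of the rule, so that these counts support nothing about the members. Of the other 338 induced genes 184 were called lower, which the rule likewise favours.

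A member is described as raised further when its H/R-AS8351 mean was at least 25% above the H/R-DMSO mean and the libraries of these groups did not overlap. This held for 10 members (11.2%), against 7.44% of all genes tested. Lowered genes were kept out of the members by the rule but not out of that background, so nothing is read from the difference. Of the 10, 9 were among the 14 called by edgeR, which used the same libraries and contrast. The 10 had ranks 1, 2, 7, 18, 19, 32, 34, 48, 60 and 78, so that they included strong and weak inductions. Of them, 5 were among the 25 members induced at least 3 times, and the rest among the 64 induced 2 to 3 times. Their levels in H/R-AS8351 ran from 1.70 CPM at rank 78 to 224 CPM at rank 18.

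The member of rank 18 was the most abundant of these 10. It had 38.1, 38.8 and 42.2 CPM in normoxia, 146, 151 and 151 CPM in H/R-DMSO and 230, 223 and 219 CPM in H/R-AS8351. The groups were far apart relative to their spread. The mean was 149 ± 2.89 CPM (SD, n = 3) in H/R-DMSO and 224 ± 5.61 CPM in H/R-AS8351, a ratio of 1.50 with a 95% interval from 1.42 to 1.59 (edgeR, from the spread between libraries). Its H/R-AS8351 mean was 5.64 times the normoxia mean. It rested on 18011 counts in the H/R-DMSO libraries, the most of the 10.

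The member of rank 48 had 3.82, 4.94 and 5.03 CPM in normoxia, 10.8, 12.5 and 10.4 CPM in H/R-DMSO and 17.2, 17.8 and 18.2 CPM in H/R-AS8351. Its H/R-AS8351 libraries were close together and 1.58 times the H/R-DMSO mean. Rank 7 had 0.580, 0.389 and 0.678 CPM in normoxia, 4.84, 5.42 and 3.73 CPM in H/R-DMSO and 7.30, 6.31 and 6.89 CPM in H/R-AS8351, a ratio of 1.47. Its induction of 8.49 times was the third highest of the 10. Rank 19 had 4.28, 3.50 and 3.47 CPM in H/R-DMSO and 5.46, 7.27 and 4.37 CPM in H/R-AS8351, a ratio of 1.52. The third H/R-AS8351 library of this gene was barely above the first H/R-DMSO library, so that the order of the groups was narrow.

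Rank 34 had 14.4, 11.9 and 14.3 CPM in H/R-DMSO and 18.7, 18.4 and 16.3 CPM in H/R-AS8351, a ratio of 1.31. Rank 60 had 13.0, 13.8 and 11.1 CPM in H/R-DMSO and 14.9, 17.3 and 16.5 CPM in H/R-AS8351, a ratio of 1.28. In both the groups did not overlap, but the gap between them was narrower than the range within either group. Rank 32 had 4.28, 5.00 and 5.30 CPM in H/R-DMSO and 6.43, 7.48 and 5.85 CPM in H/R-AS8351, a ratio of 1.36. Rank 78, the weakest of the 10, had 1.42, 1.06 and 0.932 CPM in H/R-DMSO and 1.85, 1.78 and 1.49 CPM in H/R-AS8351. Its ratio of 1.50 had a 95% interval from 1.005 to 2.25, and it was the 1 of the 10 that edgeR did not call.

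**Figure D3:**
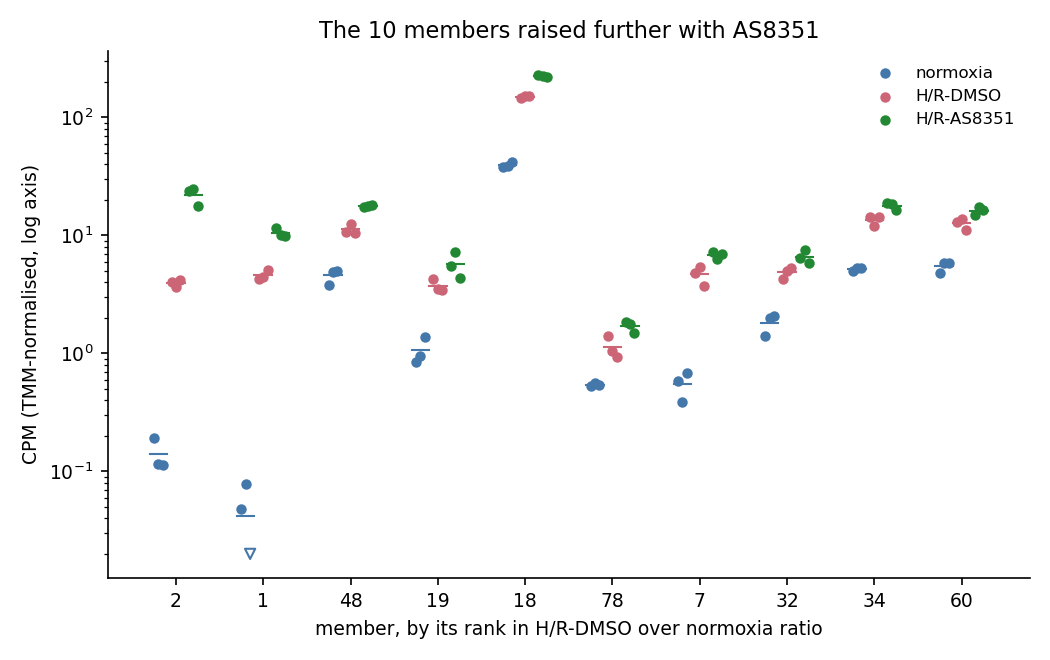
CPM on a log axis of the 10 members raised further with AS8351, from the highest ratio of H/R-AS8351 to H/R-DMSO on the left, each named by its rank in induction; every point is 1 library, short lines are means of 3, and the open triangle marks the normoxia library with 0 counts at rank 1. The H/R-AS8351 points lie above the H/R-DMSO points for every gene shown, by which these genes were chosen, and the gap is widest at rank 2.

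A further 5 members were called higher by edgeR at rises of under 25%. They were ranks 11, 16, 20, 40 and 68, and all had a mean of at least 10 CPM. Rank 68 was the most abundant of all members. It had 149, 153 and 144 CPM in normoxia, 351, 302 and 307 CPM in H/R-DMSO and 398, 383 and 372 CPM in H/R-AS8351. The first H/R-DMSO library was higher than the other 2, and all treated libraries were higher still, at a ratio of 1.20.

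Other abundant members were level between both H/R groups. Rank 35 had 62.3, 59.9 and 64.1 CPM in normoxia, 154, 166 and 165 CPM in H/R-DMSO and 154, 161 and 159 CPM in H/R-AS8351. Its ratio was 0.976, with a 95% interval from 0.921 to 1.03. Rank 59 had 26.1, 29.8 and 31.4 CPM in normoxia, 70.3, 66.3 and 63.3 CPM in H/R-DMSO and 70.9, 66.3 and 63.8 CPM in H/R-AS8351. The ranges of both H/R groups nearly coincided, and the ratio of 1.01 had an interval from 0.929 to 1.09. Rank 70 had 94.7, 95.1 and 94.1 CPM in H/R-DMSO and 98.2, 88.7 and 91.7 CPM in H/R-AS8351, a ratio of 0.981 with an interval from 0.920 to 1.05. For these 3 genes a decrease of more than 10% lies outside the interval, which takes no account of their being chosen for a ratio near or above 1.

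For most members the data do not fix the side of the limit. The 95% interval of the ratio lay wholly at or above 0.95 for 26 of the 89 members and reached below 0.95 for 63. It reached 0.8 or lower for 25 members, so that a decrease of that size cannot be told from no decrease for them. It lay wholly above 1 for 19. The upper bound of the interval was a median of 1.54 times the lower bound. This was 1.82 times for the 53 members under 5 CPM and 1.29 times for the 36 members of at least 5 CPM, so that the more deeply counted members carry the firmer values.

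**Figure D4:**
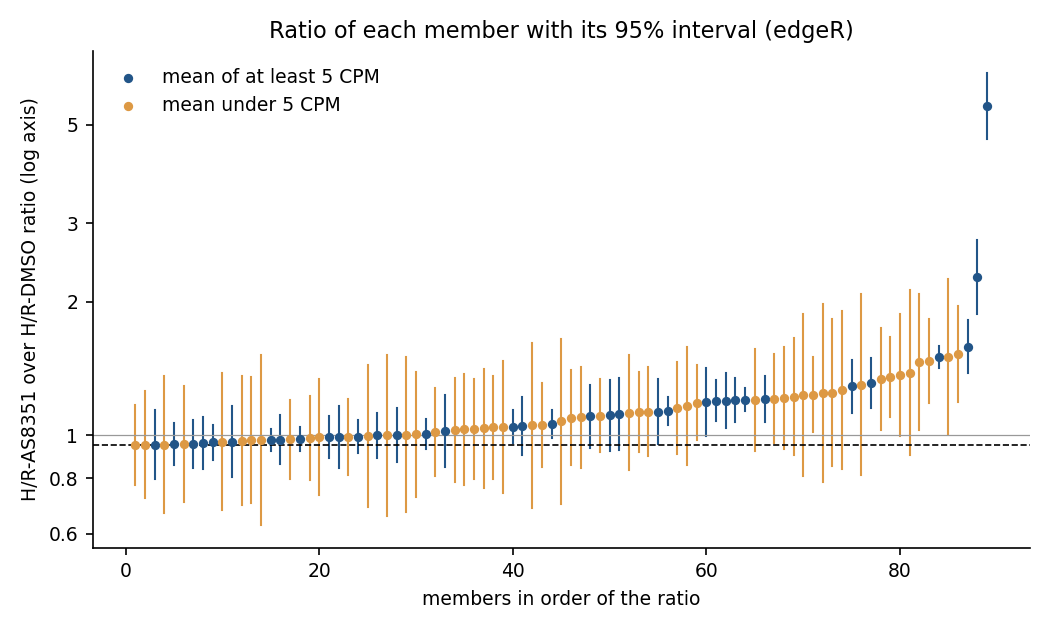
Ratio of H/R-AS8351 to H/R-DMSO as fitted by edgeR (points) with 95% intervals (lines) on a log axis for the 89 members in order of the ratio; blue marks the 36 members with a mean of at least 5 CPM and orange the 53 under it. The dashed line is the limit of 0.95, and the intervals of 63 members reach below it.

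The choice was therefore repeated with each library left out in turn, keeping the scaling. Of the 89 members, 43 met the rule in all 9 cases and 46 failed it at least once. Among the 47 members with a mean at least 5% higher in H/R-AS8351, 36 met it in all cases, and among the 42 with a lower ratio 7 did. In all, 165 genes met the rule at least once. Of the 10 members raised further, 7 kept that description in all 9 cases.

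A left-out library did not enter the choice, but each ratio sets it against the mean of another group that did, so these values are only in part independent of the rule and are given as a description. With members chosen without H/R-AS8351 replicate 1, 89 genes met the rule and 56 of them (62.9%) were at or above 0.95 times the H/R-DMSO mean in the left-out library, at a median ratio of 1.03. Without replicate 2 these were 61 of 90 (67.8%), at a median of 1.04, and without replicate 3 they were 59 of 80 (73.8%), at a median of 1.06. The median ratios in the libraries that chose them were 1.07, 1.06 and 1.11. In the same libraries 64.2%, 62.5% and 62.6% of all genes tested were at or above 0.95, so the share among the chosen genes was below that background in the first and above it in the others. Among the induced genes that the same choice left aside, the shares were 9.20%, 9.31% and 11.4%. Each H/R-AS8351 library, when left out, gave a lower median ratio than the libraries that chose the genes.

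With an H/R-DMSO library left out and the H/R-AS8351 mean set against it, between 73.9% and 77.4% of the chosen genes were at or above 0.95, at median ratios from 1.07 to 1.09, against 61.9% to 65.4% of all genes tested. For left-out replicates 1, 2 and 3 the medians were 1.069, 1.091 and 1.067, against 1.076, 1.073 and 1.070 in the libraries that chose the genes. The left-out value was thus lower for replicates 1 and 3 and higher for replicate 2. As to induction, between 83.3% and 88.6% of the genes chosen without an H/R-DMSO library were at least 2 times the normoxia mean in that library. With a normoxia library left out, the H/R-DMSO mean was at least 2 times that library for between 69.1% and 79.3% of the chosen genes. For induction the share over all genes tested is not given here. The mean set against each left-out library took part in the choice. Nothing is therefore read from any share or median ratio in this paragraph, nor from its distance to the share over all genes tested.

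The members took a small part of the RNA. Their summed level was 611 ± 2.46 CPM (SD, n = 3) in normoxia, 1556 ± 15.9 CPM in H/R-DMSO and 1777 ± 17.1 CPM in H/R-AS8351. The 8 most abundant members held 62.7% of the H/R-DMSO sum. Without these 8, the sums were 204 ± 3.64, 581 ± 8.36 and 656 ± 2.73 CPM. The rule fixed normoxia as the lowest of these sums and held the H/R-AS8351 sum to at least 0.95 times the H/R-DMSO sum. It thus favoured the higher H/R-AS8351 sum without fixing it, and nothing is read from that order. Of the 8 most abundant members, 4 had a mean at least 5% above that in H/R-DMSO and 4 had not.

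In each H/R-AS8351 library the median member stood near the H/R-DMSO level, at 1.07, 1.07 and 1.08 times the H/R-DMSO mean. The median of the other 338 induced genes was 0.765, 0.755 and 0.758 times that mean in the same libraries. The 3 treated libraries lay close together in both sets. The difference between the sets is that by which they were split.

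The spread between libraries was wider for the members than for the other induced genes. The coefficient of variation, the SD as a percentage of the mean, had a median of 10.6% within H/R-DMSO and 10.7% within H/R-AS8351 over the members. Over the other induced genes it was 7.98% and 7.91%. The members rested on fewer counts as well, with a median of 590 counts over the 3 H/R-DMSO libraries against 1106. For members under 5 CPM the median coefficient of variation within H/R-DMSO was 14.4% and for those of at least 5 CPM 5.32%. How far low counts contribute to which genes met the rule was not tested.

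Treated cells were also set against normoxia, to ask how far the members stood from unstressed cells when the compound was given. All 3 H/R-AS8351 libraries were above all 3 normoxia libraries for all 89 members, against 24.4% of all genes tested, and edgeR called all 89 higher at an adjusted p of 0.05, against 19.7%. Both means entered the rule, so nothing is read from these counts. The ratio had a median of 2.79, with quartiles of 2.29 and 3.82, and was at least 4 for 20 members. Over the members it ran from 1.91 to 249 times, with ENSRNOG00000002331 at the top and ENSRNOG00000019500 next at 156 times. Over the other 338 induced genes it ran from 1.10 to 268 times. This comparison shares its libraries with the other 2, and the 3 sets of ratios are no independent evidence of each other.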

How the data were processed

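RNA of 9 rat cardiomyocyte libraries, 3 per group by their titles, was measured by sequencing of total RNA; per the labels' protocols it was extracted with TRIzol and prepared with an NEBNext kit. The authors deposited raw counts for each Ensembl gene. Build rn6, featureCounts 2.0.1, STAR 2.7.3a, Trimmomatic 0.39 and DESeq2 1.32.0 are named in the submitters' processing notes. Annotation release, strand setting and multi-mapping reads are not described in these sources, so overlapping or near-identical genes may share counts. The count tables titled H/R-AS8351 are named K5B instead, which the labels leave unexplained, so this group rests on the sample titles and treatment labels.

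In R 4.3.3, edgeR 4.0.16 kept genes with filterByExpr (minimum count 10, minimum total 15) and scaled libraries by TMM. A quasi-likelihood model of the 3 groups was fitted to all genes and libraries, with Benjamini-Hochberg adjustment over the 15879 genes. Ratios are of mean CPM. The 95% intervals of a ratio come from the fitted log2 fold change and its standard error, its size over the square root of F. Methods were tested on simulated counts. The simulated inductions were stronger than those of most members, so genes near the limits of induction or level are not covered by that test.

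The members and lists were chosen with earlier results of these data known. The gene table (GRCr8, 47357 genes) holds no Ensembl IDs, so 0 of 30560 IDs could be matched to it. Gene lists, markers and motifs were therefore not used, and 2 IDs are named by the rule for that case. Other members were described by rank, chosen after their values were seen (highest ratios, highest levels, raised further). Alternatives were RLE and total-count scaling, no filter, other limits of the rule, DESeq2 1.42.0, a replicate block and left-out libraries.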

Additional observations from a re-analysis of the deposited data

How the results depend on the processing

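The number of members was 84 with RLE scaling, 83 of them shared with the 89, and 101 with total-count scaling, 77 of them shared. Total-count scaling moved the median log2 ratio of all genes from 0.03 to 0.19 for H/R-DMSO over normoxia and from -0.01 to -0.04 for H/R-AS8351 over H/R-DMSO, and genes called higher went to 7282 after H/R and 5875 for H/R-AS8351 over normoxia. A minimum mean of 5 CPM left 36 members, 6 of them raised further, and an induction of at least 3 times left 25, with 5 raised further; both are narrower by construction. A ratio of at least 1 left 62. With each library left out and the rest scaled anew, there were 80 to 97 members and 11 to 14 raised further. Of the latter, 9 or 10 were among the 10 reported. Without an H/R library the groups more easily fail to overlap, so the count raised further is then looser by construction. Genes called higher were 3920 to 4395 (H/R-DMSO over normoxia), 1674 to 2052 (H/R-AS8351 over H/R-DMSO) and 2638 to 3274 (H/R-AS8351 over normoxia). Replicate numbers gave no clear pairing: deviations from the group means correlated from -0.023 to 0.042 for the same number and from -0.045 to 0.026 for others, and 1 of 9 libraries was closest to its own number in both other groups. A replicate block gave 4462, 2209 and 3229 higher genes, and 15 members higher with AS8351. The ratios in left-out libraries were chosen after seeing the data. Of 72 counts under alternatives, 66 were within 1.5 times of the value reported. This compares the size of the counts and not which genes they hold. With 1 library left out and the rest scaled anew, 71 to 85 of the 89 members were shared. Low counts limit most members: 53 of 89 had a mean under 5 CPM.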
